A study of Sus scrofa with 13 samples.

Results

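Transcript levels of myogenic transcription factors, the DNA-binding proteins that start and maintain the skeletal muscle programme, were examined in the loin muscle of pigs that differed in breed and loin weight. The set was defined by gene symbol as MYOD1, MYOG, MYF5, MYF6, PAX7, MEF2A, MEF2C, MEF2D and SIX4. Of these 9 symbols, 7 matched a gene among the 25322 Ensembl genes counted in both breeds, and MYOG and PAX7 matched none by symbol and are not analysed here. All 7 matched genes passed edgeR's filter on low counts in the fit of each breed and in the fit of all pigs.

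RNA from longissimus lumborum was sequenced in 13 female pigs aged 6 months, 1 library per pig. Within Hampshire, 3 pigs with high and 3 pigs with low loin weight were compared, and within Pietrain 4 pigs with high and 3 pigs with low loin weight. All pigs were unrelated, were housed and fed alike, and were slaughtered at a similar body weight. No treatment or genetic modification was applied, and the groups are defined by breed and by the loin weight class to which each pig was assigned. Counted reads per pig ranged from 11312755 to 20134612. Pigs of 1 group differed by far more than sampling noise in all 15 pairs, so each pig was a separate replicate. The tissue label fitted the counts, since ACTA1, skeletal muscle alpha-actin, lay between 27239 and 137752 CPM (counts scaled to library size) in every pig. The study's methods say that indexed libraries were pooled for sequencing, but not which pigs shared a pool. A run effect was therefore not tested, either between the breeds or between the loin weight classes within a breed.

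The myogenic regulatory factors MYF5, MYOD1, MYOG and MYF6 are basic helix-loop-helix proteins that pair with E proteins and bind E-box motifs. MYF5 and MYOD1 commit progenitor cells to the muscle lineage and mark satellite cells, the resident stem cells of muscle, as they become activated, whereas MYF6 is the family member that persists in mature fibres. The MEF2 proteins are MADS-box factors that cooperate with the MYOD family. Class IIa histone deacetylases repress MEF2, and calcium/calmodulin-dependent kinases and p38 relieve that repression or activate it. SIX4 is a homeobox factor that acts with EYA co-activators on promoters of the MYOD family.

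Per the deposited tables, MEF2A (ENSSSCG00000028771) spans chr1:154648093-154692276 and MEF2C (ENSSSCG00000014149) chr2:98794388-98885272 on Sscrofa10.2. On the same build MEF2D (ENSSSCG00000006482) spans chr4:102218094-102236181 and SIX4 (ENSSSCG00000005089) chr1:210783238-210792607. MYOD1 (ENSSSCG00000013375), MYF5 (ENSSSCG00000000937) and MYF6 (ENSSSCG00000026533) were identified through the RefSeq gene table, which was used for names and neighbours only. In that table MYF5 and MYF6 are adjacent genes.

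Levels are given below as CPM after TMM normalization, which scales each library by its effective size. Because CPM is not corrected for transcript length, levels were compared between groups of pigs and not between genes. Genes were tested by edgeR's quasi-likelihood test over all genes that passed the filter. A gene was called when its adjusted p (Benjamini-Hochberg) was under 0.05 and its fold change at least 1.2. Log2 fold changes carry their standard error (SE). These are whole-tissue libraries, so fewer cells of a type and less RNA per cell cannot be told apart.

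**Figure D1:**
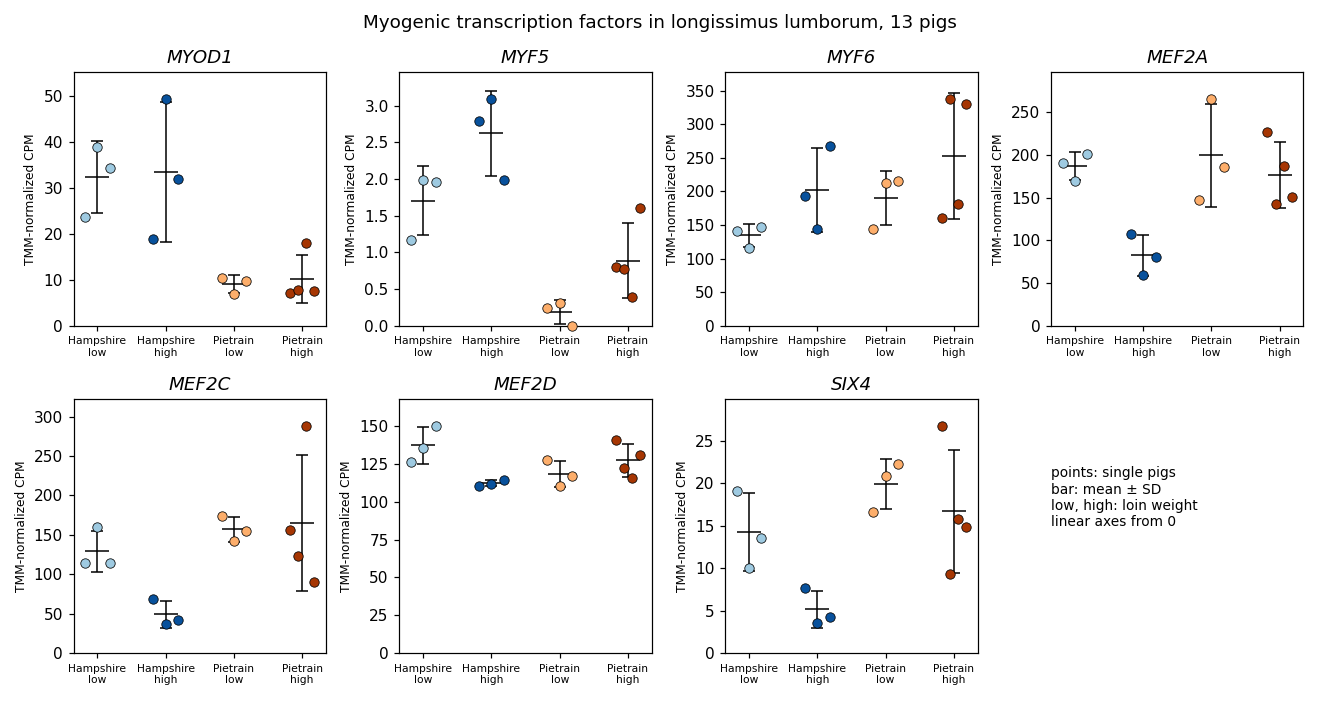
TMM-normalized CPM of the 7 genes on linear axes from 0, with 1 point per pig in the 4 groups of breed and loin weight and the mean ± SD as bars. MYOD1 and MYF5 are higher in the Hampshire groups, and MEF2A, MEF2C and SIX4 are lowest in Hampshire pigs with high loin weight.

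The clearest pattern in the MYOD family separated the breeds. MYOD1, which drives entry into the muscle lineage, was 3.57-fold higher in Hampshire than in Pietrain among pigs with low loin weight and 3.26-fold higher among pigs with high loin weight. MYF5 was 9.09-fold and 2.88-fold higher in the same comparisons. MYF6, the family member of mature fibres, was not called in either.

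MYOD1 was measured at 19.0, 49.4 and 31.9 CPM in the high group of Hampshire and at 23.6, 38.9 and 34.4 CPM in the low group. In Pietrain it was measured at 7.24, 7.90, 18.1 and 7.65 CPM in the high group and at 10.5, 6.89 and 9.75 CPM in the low group. With TMM the lowest Hampshire pig, at 19.0 CPM, therefore stood above the highest Pietrain pig, at 18.1 CPM. The breeds then did not overlap in either weight class. Without TMM they overlapped at high loin weight, with Hampshire pig 8 at 17.9 CPM and Pietrain pig 6 at 20.4 CPM. The group means were 33.4 ± 15.2 (SD, n = 3) and 32.3 ± 7.84 (SD, n = 3) CPM in Hampshire high and low, and 9.05 ± 1.91 (SD, n = 3) CPM in Pietrain low, while Pietrain high had a median of 7.77 CPM. The 2 weight classes overlapped within each breed, and with TMM only the step from Pietrain to Hampshire exceeded the spread.

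The breed difference of MYOD1 was a log2 fold change of 1.84 (SE 0.395, adjusted p = 0.0146, edgeR's quasi-likelihood test) at low loin weight. At high loin weight it was 1.71 (SE 0.357, adjusted p = 0.00172, same test). Across all genes, 17.9% of 12831 were called between the breeds at low loin weight and 46.8% at high loin weight, with 7.84% and 22.6% called higher in Hampshire. The breeds did not overlap for 2 of the 7 genes at low loin weight, against 42.8% of all genes. At high loin weight they did not overlap for 6 of 7, all but MYF6, against 48.7%. These counts and shares are from CPM with TMM, and MYOD1 overlapped at high loin weight without it. At low loin weight the call was lost without Hampshire pig 2 (adjusted p = 0.0644, edgeR), Pietrain pig 5 (0.0681) or Pietrain pig 8 (0.0576), while the log2 fold change stayed between 1.67 and 2.02.

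MYF5 was close to the limit of detection. The Hampshire libraries held 41, 34 and 31 MYF5 reads at high and 19, 41 and 28 reads at low loin weight. The Pietrain libraries held 11, 11, 6 and 32 reads at high and 3, 4 and 0 reads at low loin weight. The library with 0 reads allows a level of up to 0.202 CPM, the value of 3 counts, which covers counting error only.

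In CPM, MYF5 stood at 2.79, 3.09 and 1.98 in Hampshire high, at 1.16, 1.99 and 1.96 in Hampshire low, at 0.796, 0.769, 0.389 and 1.60 in Pietrain high, and at 0.246, 0.317 and 0 in Pietrain low. The groups thus fell in the order Hampshire high, Hampshire low, Pietrain high and Pietrain low, with overlap between Hampshire high and low and between Hampshire low and Pietrain high, and none between the 2 Pietrain groups. Hampshire exceeded Pietrain by a log2 fold change of 3.18 (SE 0.716, adjusted p = 0.0157, edgeR) at low loin weight and of 1.53 (SE 0.538, adjusted p = 0.0307, edgeR) at high loin weight. Neither contrast held its call in every fit. At low loin weight the adjusted p was 0.0728 without Hampshire pig 2, 0.0521 without Pietrain pig 5 and 0.0579 without Pietrain pig 8 (edgeR). At high loin weight it rose to between 0.0503 and 0.106 (edgeR) without Hampshire pig 8, 9 or 10 or Pietrain pig 1, 2 or 6.

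MYF6 was measured at 193, 144 and 268 CPM in Hampshire high, at 142, 115 and 147 CPM in Hampshire low, at 161, 337, 182 and 330 CPM in Pietrain high, and at 143, 212 and 215 CPM in Pietrain low. All 4 groups overlapped at least 1 other group, and Pietrain high held both the pigs with the highest levels. Hampshire against Pietrain gave a log2 fold change of -0.50 (95% interval -1.15 to 0.15) at low and of -0.32 (95% interval -0.94 to 0.29) at high loin weight, with adjusted p-values of 0.252 and 0.369 (edgeR).

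**Figure D2:**
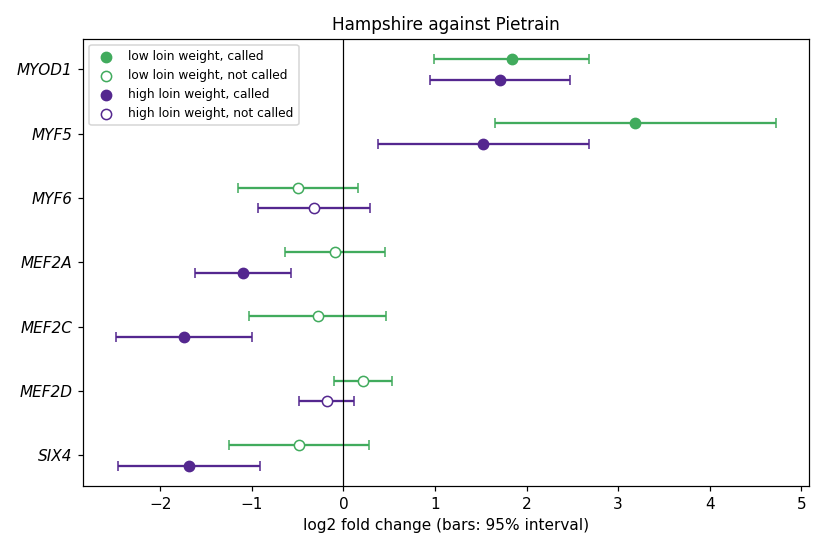
Log2 fold change of Hampshire against Pietrain for each gene, with 95% intervals, in the low (green) and high (purple) loin weight classes, with filled points for genes called by edgeR. MYOD1 and MYF5 are called to the right of 0 in both classes, and MEF2A, MEF2C and SIX4 are called to the left at high loin weight.

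Markers of other cells also differed between the breeds. In macrophage markers, 3 of 5 were called higher in Hampshire at low and 5 of 5 at high loin weight, and their summed level was 22.0 to 34.3 CPM against 6.02 to 9.44 CPM at low and 39.2 to 67.5 CPM against 7.60 to 17.5 CPM at high loin weight. CD68, which marks macrophages, had a log2 difference of 2.61 at low loin weight (adjusted p = 0.012, edgeR). Among all genes, 7.84% were called higher and 10.1% lower in Hampshire at low loin weight. At high loin weight these shares were 22.6% and 24.2%. Of 11 gene identifiers of satellite cell markers, 1 was called higher and 2 lower at low, and 2 higher and 2 lower at high loin weight. Their summed level was 110.6 to 167.3 CPM in Hampshire against 105.4 to 112.0 CPM in Pietrain at low loin weight, and 141.9 to 155.7 CPM against 116.4 to 158.6 CPM at high loin weight. CDH15, the M-cadherin of satellite cells, was called higher in Hampshire at low loin weight (log2 fold change 1.15, adjusted p = 0.0252, edgeR). The 2 called lower were both identifiers of MET, a growth factor receptor, with log2 fold changes of -0.95 and -0.99 (adjusted p = 0.0359 and 0.0215, edgeR). At high loin weight, fibroblast markers were called higher in 3 of 5 genes, with sums of 1867 to 4850 CPM against 810 to 2268 CPM, and smooth muscle markers in 3 of 4, with sums of 204.9 to 341.3 CPM against 85.6 to 102.8 CPM. Neither list held a call at low loin weight. The part of these lists in the MYOD1 and MYF5 differences was not tested.

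MEF2A, MEF2C and SIX4 differed by loin weight class in Hampshire. All 3 were lower in pigs with high loin weight, MEF2A by 2.27-fold, MEF2C by 2.64-fold and SIX4 by 2.76-fold. No member of the MYOD family was called within either breed. Among all 12228 genes tested in Hampshire, 26.6% were called, with 14.6% called lower and 12% called higher, and the 3 of 7 genes called here are read against these shares.

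MEF2A was measured at 107, 59.8 and 80.6 CPM in Hampshire high and at 190, 170 and 201 CPM in Hampshire low. Every pig with high loin weight lay below every pig with low loin weight, and the means were 82.5 ± 23.7 (SD, n = 3) and 187 ± 15.9 (SD, n = 3) CPM. The log2 fold change was -1.18 (SE 0.219, adjusted p = 0.00746, edgeR). Pietrain pigs stood at 227, 142, 187 and 151 CPM in the high group and at 148, 265 and 186 CPM in the low group, which overlapped each other and the Hampshire low group.

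MEF2C was measured at 68.9, 36.7 and 41.7 CPM in Hampshire high and at 114, 159 and 114 CPM in Hampshire low. Again the groups did not overlap, with means of 49.1 ± 17.3 (SD, n = 3) and 129 ± 26.4 (SD, n = 3) CPM and a log2 fold change of -1.40 (SE 0.256, adjusted p = 0.00724, edgeR). In Pietrain it was measured at 156, 124, 288 and 90.4 CPM in the high group and at 174, 142 and 154 CPM in the low group. The Pietrain high group spanned the whole range of the Pietrain low group, and its pig 6, at 288 CPM, had the highest MEF2C level of the 13 pigs.

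Over the 13 pigs MEF2D had the narrowest range of the MEF2 genes. It stood at 111, 112 and 114 CPM in Hampshire high and at 126, 136 and 150 CPM in Hampshire low, with 141, 122, 116 and 131 CPM in Pietrain high and 128, 110 and 117 CPM in Pietrain low. The Hampshire groups did not overlap, yet the log2 fold change of -0.29 (SE 0.147, 95% interval -0.63 to 0.04) was not called, with an adjusted p of 0.166 (edgeR).

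SIX4 was measured at 7.63, 3.55 and 4.28 CPM in Hampshire high and at 19.1, 10.0 and 13.5 CPM in Hampshire low, again without overlap. Its log2 fold change was -1.46 (SE 0.337, adjusted p = 0.0155, edgeR), and the call was lost without Hampshire pig 10 (adjusted p = 0.0589) or Hampshire pig 3 (adjusted p = 0.0522). Pietrain pigs stood at 26.7, 9.30, 15.8 and 14.9 CPM in the high group and at 16.6, 20.8 and 22.3 CPM in the low group. MEF2A and MEF2C kept their calls without each of the 6 Hampshire pigs in turn.

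Among the MYOD family in Hampshire, MYF6 had a log2 fold change of 0.58 (SE 0.242, adjusted p = 0.102, edgeR) and MYF5 of 0.61 (SE 0.333, adjusted p = 0.202, edgeR), and neither was called. MYOD1 had a log2 fold change of 0.05 with a 95% interval of -0.69 to 0.78 (adjusted p = 0.929, edgeR). In an exact permutation test over the pigs (two-sided), MEF2A, MEF2C, MEF2D and SIX4 reached p = 0.1, the smallest p that 3 against 3 pigs allow. The high and low groups of Hampshire did not overlap for these 4 of 7 genes and for 45.9% of all genes tested.

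In Pietrain none of the 7 genes was called, and neither was any of the other genes among the 12065 tested (0%), where edgeR found 398 genes, 3.3%, at an unadjusted p under 0.05 and DESeq2 called 1 gene. MYF5 had the largest fitted difference, a log2 fold change of 2.30 (SE 0.851, 95% interval 0.42 to 4.19) with an unadjusted p of 0.0213 and an adjusted p of 0.939 (edgeR). Its high and low groups did not overlap, as for 4.59% of all genes, and the exact permutation test gave p = 0.0571 (two-sided), where the smallest possible value is 0.0286. With 10 reads or fewer in 4 of the 7 Pietrain pigs, this difference rests on few reads. Without Pietrain pig 8, which had none, the log2 fold change was 1.69. MYF5 passed the low-count filter in Pietrain only through the high group, since the low group held 3, 4 and 0 reads. Its edgeR fold change and p-values here are therefore a description and cannot test the loin weight difference.

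The other 6 genes had small fitted changes in Pietrain. The 95% interval ran from -0.65 to 0.38 for MEF2A, from -0.65 to 0.83 for MEF2C, from -0.23 to 0.51 for MEF2D and from -0.91 to 0.46 for SIX4. MYOD1 had an interval of -0.58 to 0.99 and MYF6 of -0.21 to 1.11.

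**Figure D3:**
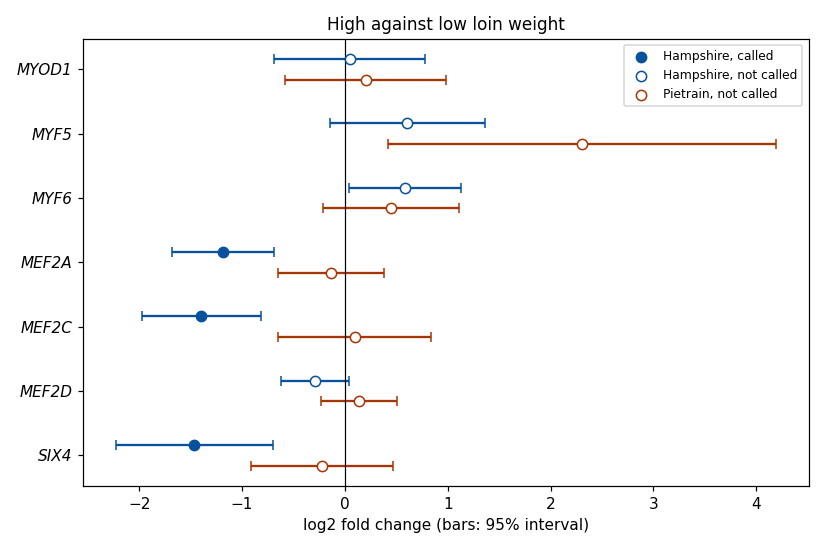
Log2 fold change of high against low loin weight for each gene with 95% intervals, in Hampshire (blue) and Pietrain (brown), with filled points for genes called by edgeR. MEF2A, MEF2C and SIX4 are called below 0 in Hampshire, and no gene is called in Pietrain.

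The 13 pigs were then fitted together to ask whether loin weight acted differently by breed. None of the 7 genes was called, against 5.9% of 12831 genes, with 1.68% called higher and 4.22% called lower. At an unadjusted p under 0.05, MEF2A, MEF2C and SIX4 were found, against 22.1% of all genes. The Hampshire effect minus the Pietrain effect was -1.46 on the log2 scale for MEF2C (SE 0.484, adjusted p = 0.093, edgeR), -1.004 for MEF2A (SE 0.352, adjusted p = 0.11, edgeR) and -1.20 for SIX4 (SE 0.503, adjusted p = 0.176, edgeR). DESeq2 called MEF2C, with a difference of -1.44 and an adjusted p of 0.0309. In edgeR, MEF2A (adjusted p = 0.0402) and MEF2C (0.0432) passed without Hampshire pig 8, and MEF2C (0.0353) without Pietrain pig 7. The difference for the remaining genes was -1.66 for MYF5, -0.40 for MEF2D, 0.18 for MYF6 and -0.13 for MYOD1, each with an interval that included 0.

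Averaged over the breeds, MEF2A had a log2 fold change of -0.68 (SE 0.175, adjusted p = 0.0268, edgeR) and SIX4 of -0.85 (SE 0.25, adjusted p = 0.0431, edgeR), and both were called, against 10.7% of all genes in either direction and 7.71% in the lower one. MEF2C, at -0.66, missed the threshold (adjusted p = 0.088, edgeR), as did MYF5, at 1.44 (adjusted p = 0.0556, edgeR), and MYF6, at 0.50 (adjusted p = 0.134, edgeR). Neither call was stable to leaving out single pigs, since MEF2A lost it without Hampshire pig 1, 3, 9 or 10 or Pietrain pig 5 and SIX4 without those pigs or Pietrain pig 2, 7 or 8, with adjusted p-values of up to 0.112. This average shares its pigs with the comparisons within each breed.

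At high loin weight, MEF2A, MEF2C and SIX4 were also lower in Hampshire than in Pietrain. The log2 fold change was -1.10 for MEF2A (SE 0.246, adjusted p = 0.00267, edgeR), -1.74 for MEF2C (SE 0.346, adjusted p = 0.00121, edgeR) and -1.69 for SIX4 (SE 0.361, adjusted p = 0.00201, edgeR). Each of these calls held without any 1 of the 13 pigs. Across all genes, 24.2% were called lower in Hampshire in this comparison. At low loin weight the same genes were not called, with 95% intervals of -0.64 to 0.45, -1.03 to 0.47 and -1.26 to 0.28. These contrasts use the same Hampshire pigs with high loin weight as the comparison within Hampshire. MEF2D was not called between the breeds, with intervals of -0.10 to 0.53 at low and -0.48 to 0.11 at high loin weight.

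The genes that act on or beside these factors were followed in lists of their partners, repressors, regulators and targets. Of the class IIa deacetylases, kinases and co-activators that act on MEF2, 7 of 13 were called lower and 1 higher in heavy-loin Hampshire pigs. The shares of all genes were 14.6% lower and 12% higher. The list had a median log2 fold change of -0.57 against 0.029 over all genes. CAMK2D, a calcium/calmodulin-dependent kinase, fell by 1.21 on the log2 scale (SE 0.169, adjusted p = 0.00318, edgeR). HDAC9, a class IIa deacetylase that represses MEF2, fell by 2.04 (adjusted p = 0.0136, edgeR), from 2.27, 3.01 and 2.66 CPM in the low group to 1.09, 0.273 and 0.512 CPM in the high group. The 0.273 CPM of Hampshire pig 9 is the value of 3 counts in that library, so the HDAC9 level of the high group rests on few reads. A repressor and an activator of MEF2 thus fell in the same comparison. NCOA2, a nuclear receptor co-activator, fell by 1.28 (adjusted p = 0.0162, edgeR) and CAMK2G, another kinase of the family, by 0.61 (adjusted p = 0.0169, edgeR). The other genes called were EP300, SRF and MAPK14, each lower, and VGLL2, a co-factor of the TEAD proteins and MEF2, which was higher with a log2 fold change of 0.56 (adjusted p = 0.0488, edgeR).

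HDAC4, HDAC5 and HDAC7, the other class IIa deacetylases measured, were not called in Hampshire. None of the 13 genes was called in Pietrain, where the median was 0.29. The loin weight effect differed between the breeds for CAMK2D (-0.94, adjusted p = 0.0402, edgeR) and NCOA2 (-1.83, adjusted p = 0.0159, edgeR).

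Of the textbook MEF2 target genes, 5 of 8 were called lower and none higher in the heavy-loin Hampshire pigs. Across all genes 14.6% were called lower and 12% higher. The list had a median of -0.82 on the log2 scale against 0.029 over all genes. Its summed level overlapped, at 6162 to 8692 CPM in the high group and 7600 to 8338 CPM in the low group. MYOZ1, the target with the highest level in these pigs, went the other way without a call. It stood at 5641, 6950 and 4581 CPM in the high group and at 4720, 3342 and 3539 CPM in the low group. SMYD1, a muscle methyltransferase needed for sarcomere assembly, was measured at 15.5, 11.8 and 13.7 CPM in the high group and at 65.3, 57.3 and 57.5 CPM in the low group. It fell by 2.13 on the log2 scale (SE 0.169, adjusted p = 0.001, edgeR), and its effect differed between the breeds (-2.36, adjusted p = 0.00251, edgeR). SLC2A4, the insulin-responsive glucose transporter, fell by 1.15 (adjusted p = 0.00811, edgeR), XIRP2, an actin-binding protein of striated muscle, by 1.11 (adjusted p = 0.0287, edgeR) and PPARGC1A, the co-activator of mitochondrial biogenesis, by 1.74 (adjusted p = 0.0131, edgeR). MYOM1, an M-band protein, was the other gene called.

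PPARGC1A also differed between the breeds. Its level was 1.98, 3.36 and 2.05 CPM in Hampshire high and 7.84, 4.76 and 11.8 CPM in Hampshire low. In Pietrain it was 86.7, 130, 183 and 5.55 CPM in the high group and 201, 171 and 180 CPM in the low group. The single Pietrain pig at 5.55 CPM, pig 7, lay within the range of the Hampshire low group. Hampshire against Pietrain gave log2 fold changes of -4.50 at low and -5.38 at high loin weight (adjusted p = 0.00965 and 0.000283, edgeR). SLC2A4 went the other way at low loin weight, where it was higher in Hampshire by 1.55 (adjusted p = 0.0191, edgeR).

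**Figure D4:**
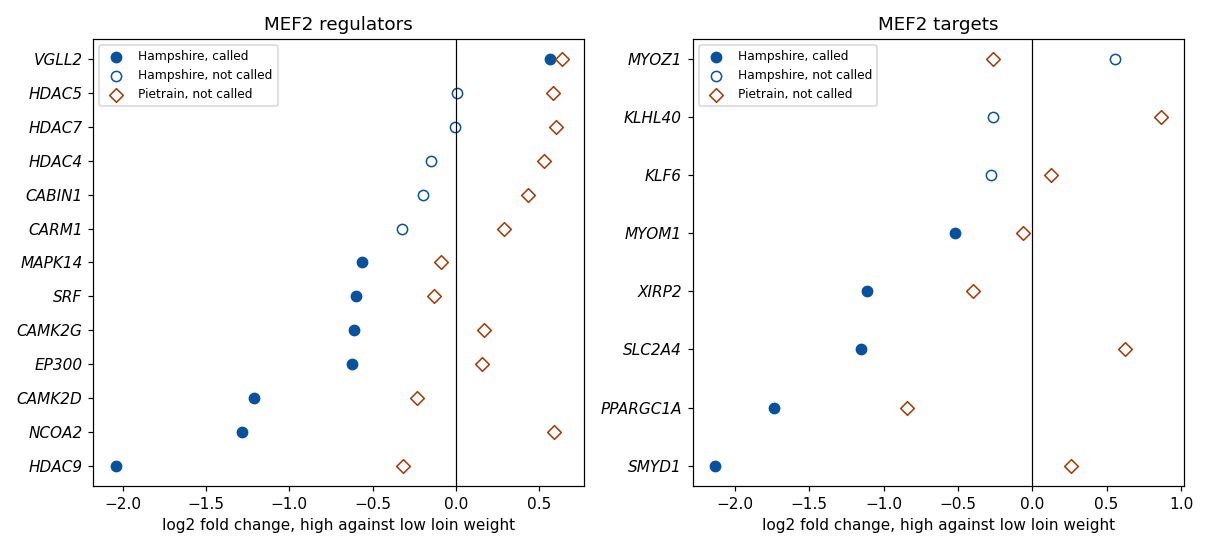
Log2 fold change of high against low loin weight for regulators and partners of MEF2 (left) and textbook MEF2 target genes (right), with circles for Hampshire, filled where called by edgeR, and diamonds for Pietrain, where none was called. In Hampshire 7 of 13 regulators and 5 of 8 targets are called below 0, against 14.6% of all genes.

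Of the E proteins with which the MYOD family pairs, TCF4 fell by 1.01 in Hampshire pigs with high loin weight (adjusted p = 0.0345, edgeR), and TCF3 and TCF12 were not called. Among 9 repressors of the MYOD family, only HES1, a Notch target, was called there, with a rise of 0.78 (adjusted p = 0.0354, edgeR), although all 9 had a fitted value above 0, with a median of 0.34. At high loin weight HES1, MSC, HEYL and BHLHE41 were higher in Hampshire than in Pietrain, 4 of 9 against 22.6% of all genes, with log2 fold changes between 0.74 and 1.35. None of the repressors was called at low loin weight.

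Of 5 upstream or neighbouring factors tested in Hampshire, EYA3, a co-activator of SIX4, fell by 0.74 (adjusted p = 0.0188, edgeR). It was measured at 13.7, 15.5 and 13.8 CPM in the high group and at 27.7, 23.0 and 20.5 CPM in the low group, which did not overlap. PAX3, an upstream factor of embryonic muscle, reached at most 0.158 CPM in any pig.

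Of 14 tested target genes of the MYOD family, 2 were called higher and 2 lower in the heavy-loin Hampshire pigs, shares near those of all genes (12% higher and 14.6% lower). CKM, muscle creatine kinase, rose by 0.98 (adjusted p = 0.0325, edgeR) and the gene named CCND3, a D-type cyclin, by 0.81 (adjusted p = 0.00795, edgeR). RB1, the retinoblastoma protein, fell by 0.82 (adjusted p = 0.0132, edgeR). The fourth was a myosin heavy chain that fell by 1.25 (adjusted p = 0.039, edgeR) and carries the name MYH1 in the deposited tables and MYH8 in the reference. The identifier of CCND3 is likewise named BYSL in the reference, so these 2 genes are uncertain. Between the breeds, 2 were called higher and 1 lower in Hampshire at low loin weight and 4 higher and 1 lower at high loin weight, where 22.6% and 24.2% of all genes were called. In Pietrain none was called between loin weights in any of these lists.

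Other marker lists moved with the Hampshire comparison, in which 12% of all genes were called higher and 14.6% lower. Slow fibre markers were called higher in 5 of 5 genes in the high group, by a median of 2.06 on the log2 scale, and their summed level was 11700 to 17800 CPM against 2834 to 6607 CPM. Fibroblast markers were called higher in 3 of 5 genes, with sums of 1867 to 4850 CPM against 732 to 1573 CPM. In macrophage markers 2 of 5 were called higher, and the sums were 39.2 to 67.5 CPM against 22.0 to 34.3 CPM. In satellite cell markers 2 were called higher and 1 lower, and the sums overlapped, at 141.9 to 155.7 CPM against 110.6 to 167.3 CPM. Smooth muscle markers were called higher in 2 of 4 genes, with sums of 204.9 to 341.3 CPM against 135.5 to 163.9 CPM. Of 3 adipocyte markers, CIDEC was called higher and PLIN4 lower, both lipid droplet proteins. The fitted value was above 0 for 2 of the 3, with a median of 1.71 on the log2 scale. Their sums were lower, at 69.3 to 89.5 CPM against 133.3 to 168.5 CPM. Of 8 general skeletal muscle markers, 2 were called higher and 2 lower. The part of these lists in the MEF2A, MEF2C and SIX4 changes was not tested. In Pietrain the summed slow fibre markers ranged from 27.7 CPM in pig 5 of the low group to 11159 CPM in pig 2 of the high group.

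Log2 fold changes also followed gene length. Across genes with a deposited position, their Spearman correlation with the length of the gene from start to end was -0.386 in Hampshire (9945 genes) and -0.0893 in Pietrain (9964 genes), and -0.391 between the breeds at high loin weight (9975 genes), given as a description across genes. MEF2A spans 44184 bp, MEF2C 90885 bp, MEF2D 18088 bp and SIX4 9370 bp. After this trend was removed within each library, MEF2A still fell by 0.93 (adjusted p = 0.0123, edgeR), MEF2C by 1.02 (adjusted p = 0.0162, edgeR) and SIX4 by 1.62 (adjusted p = 0.0102, edgeR) in Hampshire. Between the breeds at high loin weight the corrected values were -0.74, -1.22 and -1.96, and all 3 remained called. MYOD1, MYF5 and MYF6 have no deposited position and could not be corrected. Values of the regulator and target lists are given without this correction, and the part of gene length in them was not tested.

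Genes whose level followed each factor from pig to pig were found by Pearson correlation of log2 CPM over the 13 pigs after subtracting each group mean, among 11366 genes. The 2 closest genes that carry a symbol are named, and a gene without one was closer to MYF5 and to MEF2A, and between the 2 named for MEF2D. The points share library preparation and depth, each named gene was picked for its high r among the 11366, and the correlations are a description. MYOD1 was most like F13A1 (r = 0.947) and SPP1 (r = 0.936), the coagulation factor XIII A chain and osteopontin. SPP1 was measured at 136 CPM in Hampshire pig 9 and 175 CPM in Pietrain pig 6, the pigs with the highest MYOD1 level of their breed, and at 12.9 CPM or less in the other 11. Without Pietrain pig 6 and Hampshire pig 8, the pigs farthest from the median, r was 0.895 for F13A1 and 0.867 for SPP1. Hampshire pig 9, where F13A1 was also highest, at 19.0 CPM, was kept. These values therefore do not leave out both pigs with high SPP1.

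MYF6 was most like TRIM63 (r = 0.918), a ubiquitin ligase of muscle atrophy, and COQ6 (r = 0.886), an enzyme of coenzyme Q synthesis. Of genes with a symbol, MYF5 was most like LRCH4 (r = 0.915) and CST6 (r = 0.900), a cysteine protease inhibitor. MEF2A was most like EPS15 (r = 0.949), an endocytosis protein, and TMBIM6 (r = 0.932). MEF2C was most like SENP8 (r = 0.969), a NEDD8 protease, and MANEA (r = 0.942), and MEF2D was most like ABCC6 (r = 0.936) and SLC6A8 (r = 0.880), the creatine transporter. SIX4 was most like RAD23B (r = 0.939), a DNA repair protein, and KLHL20 (r = 0.911). Without the 2 farthest pigs of each factor these values lay between 0.772 and 0.945. The genes had been picked on these same pigs, so the values with fewer pigs cannot test the likeness. Within the set the closest pair was MEF2A and SIX4 (r = 0.755), while MYOD1 and MYF6 had r = -0.434.

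**Figure D5:**
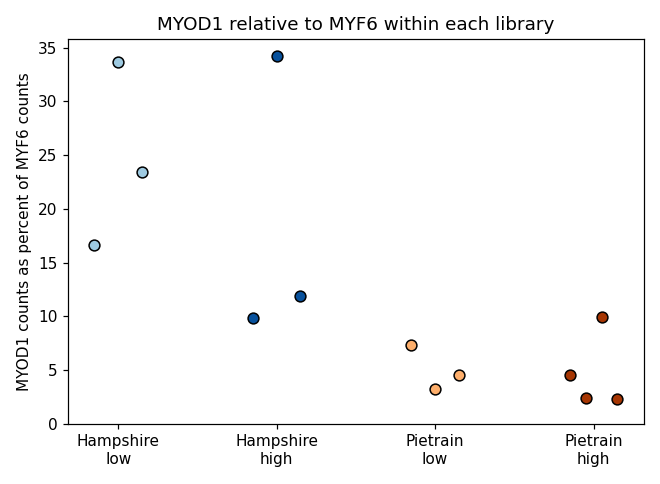
MYOD1 counts as a percent of MYF6 counts in the same library, on a linear axis from 0, with 1 point per pig in the 4 groups. Hampshire pigs range from 9.84% to 34.2% and Pietrain pigs from 2.32% to 9.97%.

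The read counts of MYOD1 and MYF6 were also set against each other within each library, which does not depend on how libraries are scaled. MYOD1 counts were 9.84%, 34.2% and 11.9% of MYF6 counts in Hampshire high and 16.7%, 33.7% and 23.4% in Hampshire low. In Pietrain they were 4.50%, 2.34%, 9.97% and 2.32% in the high group and 7.33%, 3.25% and 4.54% in the low group. Hampshire pig 8, at 9.84%, and Pietrain pig 6, at 9.97%, were the only overlap between the breeds. The mean log2 ratio was 2.17 higher in Hampshire (exact permutation test over 6 against 7 pigs, two-sided, p = 0.00175, adjusted p = 0.0105 over 12 ratio tests). This ratio was chosen after the values had been seen.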

How the data were processed

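Total RNA of longissimus lumborum was made into libraries with a kit that does not mark strand and sequenced by the authors in single-end reads, 1 library per pig in technical repetitions. The deposited values are raw counts, made by the authors for each Ensembl gene from reads aligned to Sscrofa10.2. FastQC, STAR, RSEM and DESeq2 are named in the submitters' processing notes, and the annotation release is not given in the sources used here. From the tables of the authors' own comparisons only symbols and gene positions were used, and their fold changes and p-values were not.

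Counts were analysed in R 4.3.3 with edgeR 4.0.16 (TMM, filterByExpr by group, glmQLFit, glmQLFTest). Each breed was fitted on its own for high against low loin weight, and all 13 pigs were fitted together for the difference between breeds, the average and the breed contrasts. Adjustment was over all genes tested. SE was the log2 fold change divided by the square root of F. Single genes were also tested by exact permutation on log2 of CPM plus 0.5. Alternatives were DESeq2 1.42.0, its size factors, no filter, at least 10 counts in every pig, removal of the gene length trend (loess span 0.5), no fold change threshold, 1 fit for all pigs, CPM without TMM, pseudocounts of 0.1 and 2, and leaving out each pig. The scripts were tested on simulated data.

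Of 25322 identifiers, 13168 had a symbol, 11804 of them from RefSeq names of Sscrofa11.1, and the 2 sources differed for 292. Of 149 symbols in the lists, 109 matched. Named were all members, every gene of the factor, partner, repressor, regulator and target lists called within a breed (the 4 with the smallest adjusted p where more were called) and the 2 genes with a symbol and a mean of at least 1 CPM most like each member. The other list and marker genes named, and the ratios, were chosen after their values were seen. Members and lists were chosen with earlier results of these data known. Sequences, microRNA libraries and PCR values were not used here. One gene of the lists is not reported here. Reads from overlapping antisense genes cannot be told apart, and p-values measure the spread between these pigs. The limit for a count of 0 covers counting error only, and the intervals of fold changes include the spread between pigs. The study's methods count 1 Pietrain pig with high loin weight fewer than the labels without naming it, and all 4 labelled pigs were used. Figures were drawn with matplotlib 3.10.9.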

Additional observations from a re-analysis of the deposited data

Results flagged for a closer look

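MYOD1 in Pietrain pig 6 of the high loin weight group stood at 18.1 CPM, far from the other 3 pigs of that group at 7.24 to 7.90 CPM. Only this group, with 4 pigs, could be examined for a pig far from the others, and chance flags about 1 in 20 groups, here 1 of 7 genes. The same pig had the highest MEF2C level of the 13 pigs (288 CPM), SPP1 at 175 CPM and VCAM1, an adhesion molecule of satellite and endothelial cells, at 53.1 CPM against at most 20.6 CPM in the other Pietrain pigs. Other satellite cell markers went both ways in this pig. CDH15, at 11.4 CPM, and SDC4, at 1.36 CPM, were the lowest of the 13 pigs. NCAM1, at 21.9 CPM, was the highest of the Pietrain pigs. The summed slow fibre markers of Pietrain pig 6 were 747 CPM. The part of these in its MYOD1 level was not tested. Without this pig the MYOD1 log2 fold change of Hampshire against Pietrain at high loin weight was 2.11 (adjusted p = 0.000286, edgeR), and that of MEF2C was -1.36 (adjusted p = 0.0013, edgeR).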

How the results depend on the processing

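In Hampshire, 3 of 7 genes were called under every alternative setting, and 2 to 3 without single pigs. In Pietrain 0 were called in every fit, and MYF5 passed the filter in 4 of 7 fits without single pigs. At high loin weight, 5 genes were called between the breeds and 4 to 5 without single pigs, but 3 after removal of the length trend, where only the 4 genes with a position could be tested. At low loin weight, 2 were called, against 1 with at least 10 counts in every pig, where MYF5 was not tested, 0 after removal of the length trend, where MYOD1 and MYF5 could not be tested, and 0 to 2 without single pigs. For the difference between breeds, 0 were called, against 1 with DESeq2 and 0 to 2 without single pigs. For the average, 2 were called, against 4 with DESeq2, 1 after removal of the length trend (MEF2A at -0.53, adjusted p = 0.0508, edgeR) and 0 to 4 without single pigs. The cause was not tested.

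Over all genes, the difference between breeds had 757 calls, against 1242 with DESeq2 and 423 after removal of the length trend. Signs turned only for fold changes that were not called. The MYOD1 log2 fold change in Hampshire was -0.033 with at least 10 counts in every pig and -0.0032 without a filter, and lay between -0.37 and 0.29 without single pigs. MEF2A between the breeds at low loin weight was 0.062 after removal of the length trend and lay between -0.22 and 0.16 without single pigs. Without single pigs, the difference between breeds lay between -0.15 and 0.33 for MYF6 and between -0.57 and 0.23 for MYOD1, the average for MYOD1 between -0.11 and 0.26, and the Pietrain change between -0.28 and 0.094 for MEF2A, between -0.30 and 0.29 for MEF2C and between -0.20 and 0.36 for MYOD1. The mean MEF2D level of Hampshire high was 102 CPM without TMM against 112 CPM with it. Without TMM, MYOD1 of Hampshire pig 8 (17.9 CPM) lay below that of Pietrain pig 6 (20.4 CPM), so the breeds overlapped at high loin weight. Pseudocounts of 0.1 and 2 changed no permutation p-value across 0.05. No paired analysis was made, since the pigs were unrelated and an animal number found in both breeds names different pigs.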

Other observations

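MYF5 counts, like those of MYOD1, were set against MYF6 within each library, among the 12 ratio tests chosen after the values had been seen. MYF5 was 0.740% to 2.14% of MYF6 counts in the 6 Hampshire pigs and at most 0.495% in the 7 Pietrain pigs, so the breeds did not overlap, and the mean log2 ratio was 2.81 higher in Hampshire (exact permutation test, two-sided, p = 0.00175, adjusted p = 0.0105). Within Pietrain the same ratio was 0.495%, 0.228%, 0.214% and 0.485% at high and 0.172%, 0.149% and 0% at low loin weight, a log2 difference of 2.09 with p = 0.0286, the smallest the exact permutation test can give, and an adjusted p of 0.0857. MYF5 has few reads in these pigs.

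MEF2C counts were 62.2%, 32.9% and 36.4% of MEF2D counts in Hampshire high and 90.2%, 117% and 75.9% in Hampshire low, which did not overlap. The log2 difference was -1.14 for this ratio and -0.93 for MEF2A against MEF2D, each with an exact permutation p of 0.1, the smallest that 3 against 3 pigs allow. Between the breeds the ratio of MEF2C to MEF2D differed by -0.98 (exact permutation test, adjusted p = 0.0676), which missed the threshold.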
